A study of Mus musculus with 32 samples.

Results

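The 49 genes described here encode the machinery of the cell division cycle and the proteins by which dividing cells are usually recognised. They were chosen by gene symbol, a rule that uses no measured value, although earlier results of these data were known at the choice. Each matched 1 Ensembl identifier, 49 of the 54838 genes measured. RNA was sequenced from skeletal muscle, which the study's methods give as the tibialis anterior (TA), of WT and *Mtm1* KO mice on the C57BL6/J background at P1, P14, P21 and P35. The *Mtm1* KO males carry a constitutive deletion in exon 4 of *Mtm1*, the gene of the lipid phosphatase myotubularin that is mutated in X-linked myotubular myopathy, and were born to carrier females, and the WT mice were littermates. Each of the 8 groups held 4 libraries (n=4), 32 in all, and no treatment is named for any group. The libraries of different ages came from different mice, so age cannot be told apart from litter, day of collection or sequencing run. The question was how the RNA of the division machinery changed with postnatal age, and whether it differed between genotypes at any age.

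Cyclins activate cyclin-dependent kinases (CDKs) in a fixed order. D-type cyclins with CDK4 or CDK6 and then E-type cyclins with CDK2 release E2F transcription factors and open S phase, in which licensed origins fire, and cyclin A and cyclin B with CDK1 lead into mitosis, which ends when the anaphase-promoting complex destroys cyclin B and securin. In postnatal muscle the nuclei inside fibres have left the cycle, and dividing cells are satellite cells, whose progeny fuse with growing fibres, and interstitial cells such as fibro-adipogenic progenitors, endothelial cells and macrophages. In bulk RNA, fewer dividing cells and less of these transcripts per dividing cell cannot be told apart.

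By role the set held 2 chromatin markers of proliferation (*Mki67*, *Top2a*), 9 cyclins, kinases and a transcription factor of G1 and S phase (*Ccnd1*, *Ccnd2*, *Ccnd3*, *Ccne1*, *Ccne2*, *Cdk2*, *Cdk4*, *Cdk6*, *E2f1*) and 9 genes of origin licensing and the replication fork (*Cdc6*, *Gmnn*, *Mcm2*, *Mcm3*, *Mcm4*, *Mcm5*, *Mcm6*, *Mcm7*, *Pcna*). A further 3 genes supply deoxynucleotides (*Rrm1*, *Rrm2*, *Tyms*), and 10 belong to G2 and M phase (*Ccna2*, *Ccnb1*, *Ccnb2*, *Cdk1*, *Cdc25b*, *Cdc25c*, *Foxm1*, *Plk1*, *Aurka*, *Aurkb*). The remaining genes were 6 of the spindle checkpoint and anaphase-promoting complex (*Bub1*, *Bub1b*, *Mad2l1*, *Ttk*, *Cdc20*, *Ube2c*), 4 of the centromere and kinetochore (*Cenpa*, *Cenpe*, *Cenpf*, *Birc5*) and 6 of spindle motors, midzone and cytokinesis (*Kif11*, *Kif20a*, *Kif23*, *Nusap1*, *Prc1*, *Tpx2*).

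Promoter windows from 250 bases before to 50 bases after the RefSeq start (GRCm38.p6) were found for 38 of the 49 genes, in 41 windows. They were searched on both strands for the cell cycle homology region (CHR, TTTGAA or TTCGAA), the CCAAT box (CCAAT) and E2F sites (TTTCCCGC, TTTGGCGC, TTTCGCGC or TTTGCCGC), which are known from genes expressed in cycling cells. A CHR match was present in 48.8% of the 41 windows and in 19.2% of all 32851 windows of the same length, a CCAAT match in 75.6% and 37.4%, and an E2F match in 17.1% and 2.26%. Both a CHR and a CCAAT match were present in 48.8% of the members' windows and in 7.52% of all windows. The stretches below run from 250 bases before to 30 bases after the start, in lower case with CHR, CCAAT and E2F matches in capitals. *Mki67*, *Ube2c* and *Ccne1* are shown because they fell far with age, and *Rrm1*, *Aurka*, *Cdc25b* and *Cdk6* because they differed between genotypes at P35.
Mki67, chr7:135716350-135716629, minus strand: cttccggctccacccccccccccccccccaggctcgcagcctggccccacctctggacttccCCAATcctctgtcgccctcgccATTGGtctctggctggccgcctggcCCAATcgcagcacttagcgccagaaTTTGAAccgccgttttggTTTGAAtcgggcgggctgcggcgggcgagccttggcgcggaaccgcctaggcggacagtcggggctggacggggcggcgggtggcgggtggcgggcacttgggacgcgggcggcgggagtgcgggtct
Ube2c, chr2:164769679-164769958, plus strand: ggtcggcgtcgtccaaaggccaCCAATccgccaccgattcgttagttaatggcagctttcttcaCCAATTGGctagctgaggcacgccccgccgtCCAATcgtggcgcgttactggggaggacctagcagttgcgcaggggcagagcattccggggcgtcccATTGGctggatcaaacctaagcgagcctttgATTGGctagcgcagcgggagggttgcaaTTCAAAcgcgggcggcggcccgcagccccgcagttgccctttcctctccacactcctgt
Ccne1, chr7:38107461-38107740, minus strand: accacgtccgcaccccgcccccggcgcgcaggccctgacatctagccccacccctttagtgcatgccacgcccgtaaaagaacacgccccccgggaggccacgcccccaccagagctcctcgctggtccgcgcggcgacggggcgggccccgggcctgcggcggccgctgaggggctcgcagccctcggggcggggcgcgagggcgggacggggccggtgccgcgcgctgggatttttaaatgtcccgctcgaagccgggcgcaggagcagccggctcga
Rrm1, chr7:102441445-102441724, plus strand: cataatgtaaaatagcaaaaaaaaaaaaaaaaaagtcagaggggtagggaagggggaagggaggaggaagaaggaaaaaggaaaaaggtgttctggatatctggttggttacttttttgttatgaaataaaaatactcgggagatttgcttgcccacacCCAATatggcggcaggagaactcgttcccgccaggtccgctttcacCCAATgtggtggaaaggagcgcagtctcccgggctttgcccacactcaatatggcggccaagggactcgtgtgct
Aurka, chr2:172370541-172370820, minus strand: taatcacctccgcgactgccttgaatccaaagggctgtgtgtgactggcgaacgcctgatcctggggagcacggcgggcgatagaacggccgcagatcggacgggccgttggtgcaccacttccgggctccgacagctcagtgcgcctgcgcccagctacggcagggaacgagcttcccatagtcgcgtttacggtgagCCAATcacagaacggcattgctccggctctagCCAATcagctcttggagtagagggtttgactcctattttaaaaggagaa
Cdc25b, chr2:131186698-131186977, plus strand: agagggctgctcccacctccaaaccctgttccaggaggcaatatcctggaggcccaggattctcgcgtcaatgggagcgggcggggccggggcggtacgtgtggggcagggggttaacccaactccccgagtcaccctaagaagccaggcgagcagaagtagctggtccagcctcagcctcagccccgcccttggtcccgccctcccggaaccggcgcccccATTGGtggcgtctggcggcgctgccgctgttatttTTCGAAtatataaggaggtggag
Cdk6, chr5:3343643-3343922, plus strand: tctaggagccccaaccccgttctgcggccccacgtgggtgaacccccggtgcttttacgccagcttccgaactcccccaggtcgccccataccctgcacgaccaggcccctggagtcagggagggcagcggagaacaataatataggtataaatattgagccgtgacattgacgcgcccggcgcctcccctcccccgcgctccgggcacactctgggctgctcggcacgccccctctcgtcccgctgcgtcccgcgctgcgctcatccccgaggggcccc
*Mki67* and *Ube2c* carry both CHR and CCAAT matches, *Rrm1* has CCAAT matches with no CHR match, and *Ccne1* and *Cdk6* hold none of these letters. The CHR match of the *Aurka* window lies past the printed end. The 19 members with a CHR match had a median log2 fold change from P1 to P14 in WT of -1.62 and the 19 without one -1.49, which is a description of these windows with no test.

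Counts summed to between 49321035 and 85631408 per library, of which the 49 genes together took 12378 to 194287. *Mtm1* was at 18.9 to 24.9 counts per 1000000 counts (CPM) in the WT libraries from P14 on and at 2.64 to 4.51 CPM in the KO libraries, and at P1 at 5.26 to 6.02 and 2.32 to 3.91 CPM, without overlap at any age. Exons outside the deletion still count towards *Mtm1*. Muscle fibre markers summed to 28803 to 38331 CPM at P1 and 168019 to 222647 CPM at P14 in WT, so the labelled tissue was present throughout. The P1 libraries also held markers of tissues outside muscle, with summed keratinocyte markers of 2289.5 to 7212 CPM in WT against 13.7 to 19.3 CPM at P14, and summed cartilage and bone markers of 511 to 858 against 12.6 to 30.5 CPM. Levels below are CPM with all 32 libraries scaled together by the trimmed mean of M-values (TMM), given in the order of replicates 1 to 4.

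The division machinery was high at P1 and fell steeply by P14 in both genotypes. A member was called changed at an adjusted P-value under 0.01 with an absolute fold change over 1.5 in edgeR's quasi-likelihood test. Counts of genes that fell or rose are counts of called genes. In WT muscle 45 of the 49 genes fell between P1 and P14, against 30.4% of the 17435 genes tested, and in *Mtm1* KO muscle 35 fell, against 29.1% of 17719. All 49 had a log2 fold change below 0 in both genotypes, with a median of -1.51 in WT and -1.40 in KO, where the medians over all genes were -0.08 and -0.09. The median member kept 35.3% of its WT P1 level at P14, 21.4% at P21 and 14.9% at P35, and 38.7%, 17.5% and 15.7% of its KO P1 level. The step was called in both genotypes for 35 genes and in WT alone for 10 (*Cdc6*, *Cenpf*, *Mcm2*, *Mcm3*, *Mcm4*, *Mcm5*, *Mki67*, *Prc1*, *Rrm2*, *Tyms*), and *Ccnd1*, *Ccne2*, *Pcna* and *Rrm1* were called in neither. The interaction of genotype with this step, called at an adjusted P-value under 0.01, was called for 0 of the 49 genes, against 0.0161% of the 18583 genes tested, with 0 at an unadjusted P-value under 0.05 and 0 in DESeq2, so the step was not shown to differ between genotypes.

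**Figure D1:**
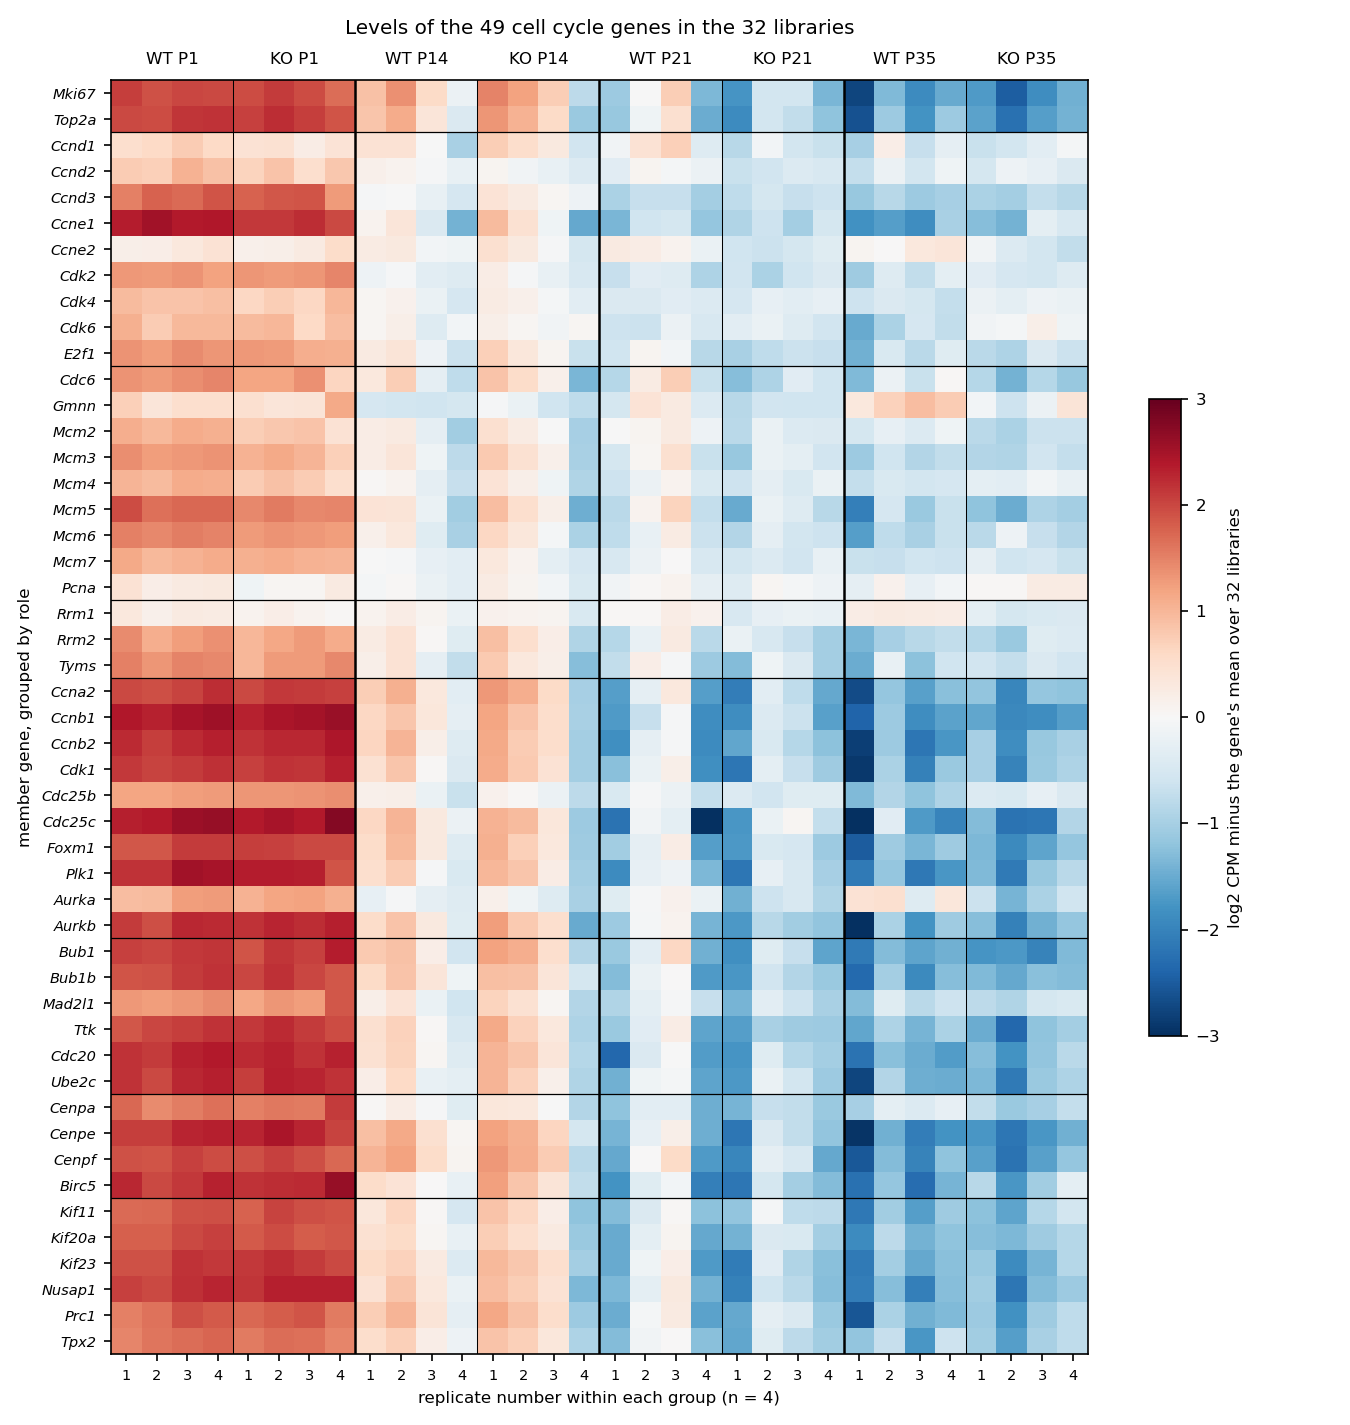
Level of each of the 49 genes (rows, ordered by role) in each of the 32 libraries (columns, by age and genotype), as log2 CPM minus the gene's mean over the 32 libraries, with colours that saturate at 3 on either side of 0. The P1 columns are high for nearly every row, the columns of P14 differ among themselves within a genotype, and rows such as *Rrm1*, *Pcna* and *Ccne2* vary little with age.

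The marker *Mki67*, whose protein coats mitotic chromosomes, stood at 108, 95.6, 103 and 101 CPM in the WT P1 libraries and at 47.1, 65.9, 37.8 and 22.5 CPM in those of P14. The groups did not overlap, and the step was called (log2 fold change -1.25, SE 0.259, adjusted P=0.00143). In KO it stood at 99.1, 109, 99.3 and 81.9 CPM and then at 71.7, 59.1, 42.3 and 14.7 CPM, also without overlap, with 1 P14 library far below the other 3 and no call (log2 fold change -1.08, SE 0.377, adjusted P=0.0252). *Top2a*, the topoisomerase that untangles replicated DNA, fell from 72.4, 71.1, 81.6 and 83.1 to 32.7, 39.99, 23.8 and 13.5 CPM in WT (log2 fold change -1.50, SE 0.268, adjusted P=0.000562). At P35 the mean of *Mki67* was 7.28% of its P1 level in WT and 7.41% in KO.

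Among the G1 and S phase genes, 7 of 9 fell from P1 to P14 in WT and 7 of 9 in KO, with log2 fold changes from -2.63 to -0.19 and -1.96 to -0.10. *Ccne1*, which codes for the cyclin E1 partner of CDK2, stood at 12.5, 13.99, 12.6 and 12.8 CPM at P1 and 2.602, 3.11, 1.77 and 0.878 CPM at P14 in WT. This was the furthest fall of any member in WT (log2 fold change -2.63, SE 0.288, adjusted P=1.99e-05), and the KO value was -1.96 (SE 0.391, adjusted P=0.00129). Of the D-type cyclins, which link growth signals to CDK4 and CDK6, *Ccnd3* had 208, 251, 237 and 268 CPM at P1 and 71.4, 72.6, 62.1 and 51.5 CPM at P14 in WT, well apart (log2 fold change -1.91, SE 0.121, adjusted P=6.05e-07). *Ccnd2* went from 85.4, 82.05, 104 and 91.98 to 55.6, 53.6, 48.8 and 42.96 CPM, a smaller step that was also called (log2 fold change -0.86, SE 0.0985, adjusted P=2.62e-05). *Ccnd1* had 69.3, 73.4, 83.4 and 73.99 CPM at P1 and 65.8, 65.5, 48.1 and 24.8 CPM at P14, below the P1 range in all 4 libraries, replicate 4 furthest, and without a call (log2 fold change -0.56, SE 0.254, adjusted P=0.0646). *Ccne2*, the other E-type cyclin, changed least of the members in WT (log2 fold change -0.19, SE 0.116, adjusted P=0.148).

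Of the 9 licensing and fork genes, 8 were called lower in WT and 3 in KO, and all 9 lay below 0 in both genotypes. The 6 subunits of the MCM helicase, which is loaded at origins, had log2 fold changes of -1.18 (*Mcm2*), -1.35 (*Mcm3*), -1.23 (*Mcm4*), -1.78 (*Mcm5*), -1.64 (*Mcm6*) and -1.23 (*Mcm7*) in WT, all called. In KO the values were -0.71, -0.77, -0.80, -1.24, -1.22 and -1.14, and *Mcm6* and *Mcm7* were called. *Pcna*, the sliding clamp of DNA polymerase, stood at 51.9, 44.04, 46.5 and 47.5 CPM at WT P1 and at 36.9, 39.4, 33.9 and 30.8 CPM at P14, without overlap and without a call (log2 fold change -0.44, SE 0.0834, adjusted P=0.000794). In deoxynucleotide supply, *Rrm2* and *Tyms* fell in WT (-1.18 and -1.49), while *Rrm1*, the large subunit of ribonucleotide reductase, had 49.8, 44.2, 48.4 and 47.05 CPM at P1 and 43.1, 46.3, 42.6 and 34.6 CPM at P14 (log2 fold change -0.20, SE 0.0864, adjusted P=0.0594). The WT P35 level of *Rrm1* was 99.5% of that at P1, where the median member was at 14.9%. Per kilobase of exon, *Rrm1* was at 4.28 CPM per kb in WT P35, which ranked 4 among the 49 members after *Pcna* at 14.9, *Cdk4* at 8.69 and *Ccnd1* at 8.03, and it ranked 29 at WT P1, where *Ccnd3* at 27.4, *Cdk4* at 23.9 and *Pcna* at 19.8 led.

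Every gene of G2 and M phase, the spindle checkpoint, the kinetochore and cytokinesis fell from P1 to P14 in WT (10 of 10, 6 of 6, 4 of 4 and 6 of 6), and in KO 10, 6, 3 and 5 fell. *Plk1*, a kinase that acts at centrosomes and kinetochores, stood at 11.4, 11.5, 14.8 and 14.3 CPM and then at 3.58, 4.35, 2.48 and 1.84 CPM in WT, far apart (log2 fold change -2.09, SE 0.233, adjusted P=2.27e-05). *Ube2c*, the ubiquitin-conjugating enzyme of the anaphase-promoting complex, went from 16.4, 14.4, 17.6 and 18.4 to 4.16, 5.44, 3.09 and 2.93 CPM in WT, likewise far apart (log2 fold change -2.10, SE 0.184, adjusted P=4.50e-06). In KO the members that fell furthest were *Cdc25c* (log2 fold change -2.05, SE 0.369, adjusted P=0.000659), a phosphatase that activates CDK1, then *Ccne1*, and *Nusap1* (log2 fold change -1.91, SE 0.364, adjusted P=0.000947), a spindle microtubule protein. *Nusap1* had 19.2, 21.9, 21.9 and 21.9 CPM at KO P1 and 8.18, 7.26, 5.82 and 1.68 CPM at P14, with replicate 4 lowest. *Cdc25c* was the member with the lowest level, at 2.68 ± 0.267 CPM (mean ± SD, n=4) at WT P1 and 0.147 ± 0.142 CPM at WT P35, where it was too low to be tested between genotypes.

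**Figure D2:**
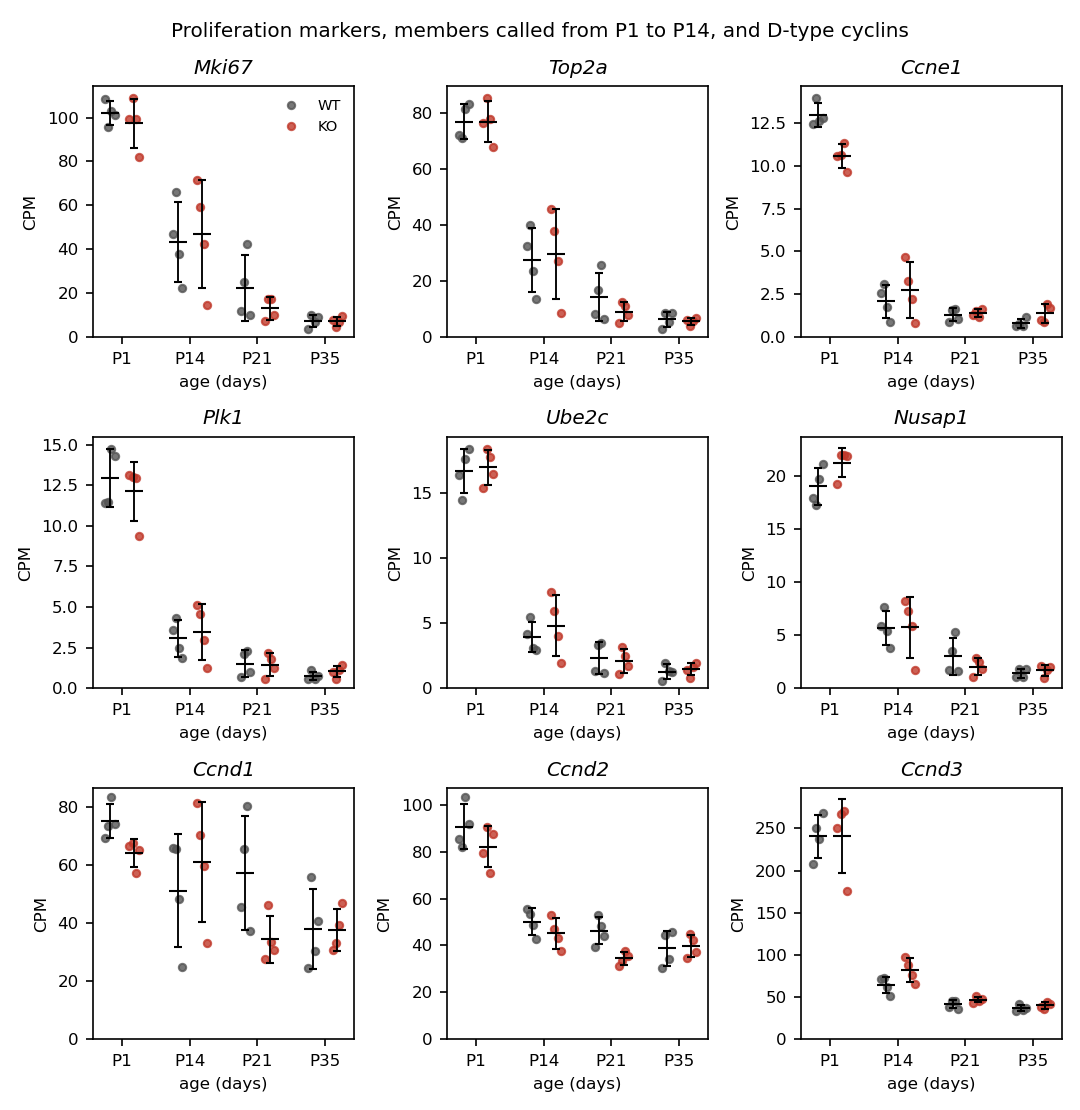
CPM of *Mki67*, *Top2a*, *Ccne1*, *Plk1*, *Ube2c*, *Nusap1*, *Ccnd1*, *Ccnd2* and *Ccnd3* in each library (points, by age and genotype, in replicate order), with the mean ± SD of each group of 4 as a black bar. Every P14 library lies below every P1 library of its genotype for *Mki67*, *Top2a*, *Ccne1*, *Plk1*, *Ube2c* and *Nusap1*, and the P14 points spread widely.

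Marker lists moved in both directions over the same step in WT. The fibro-adipogenic and tendon list summed to 17833 to 24276 CPM at P1 and 5805 to 12062 CPM at P14, the satellite and myogenic list to 277 to 362 CPM at P1 and 119.7 to 201 CPM at P14, the macrophage list to 181 to 199 CPM at P1 and 101 to 115 CPM at P14, the immature fibre list to 18725 to 24578 CPM at P1 and 4382 to 6294 CPM at P14 and the neutrophil and lymphocyte list to 23.8 to 112 CPM at P1 and 2.87 to 3.96 CPM at P14, all lower at the later age. Higher at P14, beside the muscle fibre list, was the endothelial and mural list, at 613 to 671 CPM at P1 and 1523 to 1731 CPM at P14. The Schwann cell sum was also higher, at 256 to 332 CPM at P1 and 534 to 828 CPM at P14, and the erythroid and adipocyte sums overlapped. By gene, 2 of the 7 Schwann cell genes were called higher and 2 lower. Of the 10 erythroid genes 1 was called higher and 6 lower, and of the 5 adipocyte genes 0 and 3. The part of these lists in the falls, and that of the keratinocyte, cartilage and bone RNA at P1, was not tested. Scaling by library totals in place of TMM moved the median of all genes by -0.85 in WT and -0.81 in KO over this step, and the members then had medians of -2.26 and -2.05, with 49 and 48 called.

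After P14 the levels went on downwards in most members, but few single steps were called. Between P14 and P21, 1 of 49 genes fell in WT (2.6% of the 15337 genes tested were called lower) and 1 in KO (3.74% of 15585), and in both it was *Ccnd3*. In WT *Ccnd3* had 71.4, 72.6, 62.1 and 51.5 CPM at P14 and 38.02, 45.5, 45.4 and 36.3 CPM at P21, without overlap (log2 fold change -0.65, SE 0.123, adjusted P=0.00611). In KO it had 97.7, 88.2, 75.8 and 65.2 and 43.2, 50.7, 45.1 and 47.6 CPM, also without overlap (log2 fold change -0.83, SE 0.122, adjusted P=0.00224). All 49 log2 fold changes were below 0 in KO (median -0.999) and 42 of 49 in WT (median -0.72), at an unadjusted P-value under 0.05 there were 39 genes in KO and 23 in WT, and DESeq2 called 19 and 3. The KO count rested on single libraries, with 35 genes called without KO P14 replicate 4 and 0 without KO P14 replicate 2. The WT call was lost when any WT P14 or P21 library other than WT P14 replicate 4 was left out. Here and below, counts at an unadjusted P-value, in DESeq2 or without a library have no share of all genes beside them. They are not read as an excess over all genes.

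Between P21 and P35, 0 of 48 genes were called lower in WT (1.05% of 15039) and 0 of 49 in KO (1.94% of 15734). The log2 fold change was below 0 for 43 and 34 of them. At an unadjusted P-value under 0.05 there were 19 and 9, and DESeq2 called 2 (*Cdc25b*, *Cenpe*) and 0. The median log2 fold change was -0.70 in WT and -0.24 in KO. *Mki67* had 11.99, 25.2, 42.5 and 9.97 CPM at P21 and 3.77, 10.2, 6.84 and 8.97 CPM at P35 in WT, with overlap (log2 fold change -1.62, SE 0.479, adjusted P=0.046). In KO it had 7.45, 17.4, 17.5 and 9.85 and 7.86, 4.54, 7.03 and 9.43 CPM, with much overlap. The interactions of genotype with the steps from P14 to P21 and from P21 to P35 were called for 0 of the 49 genes each, against 0.425% and 0.463% of the 18583 genes tested, with 6 and 3 at an unadjusted P-value under 0.05 and 0 in DESeq2.

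After P1 the members were high or low together from library to library of a group. In KO P14, replicate 1 was highest for 49 of the 49 genes and replicate 4 lowest for 48. In WT P14, replicate 2 was highest for 43 and replicate 4 lowest for 47. The summed CPM of the 49 genes was 718, 795, 584 and 437 in WT P14 and 923, 799, 653 and 391 in KO P14, a range wider than the gap between the genotypes. The median SD of log2 CPM over the members was 0.47 in WT P14 and 0.83 in KO P14, where the median over all genes was 0.147 and 0.158, and at P1 it was 0.118 and 0.125 against 0.114 and 0.189. At P21 WT replicate 3 was highest for 39 genes and KO replicate 1 lowest for 42, and at P35 WT replicate 1 and KO replicate 2 were each lowest for 41.

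Both replicates 4 of P14 also had the lowest satellite and myogenic sums of their groups (199.6, 201, 174 and 119.7 CPM in WT against 211, 214, 204 and 149 CPM in KO), the lowest fibro-adipogenic and tendon sums (9956, 9916, 12062 and 5805 and 9822, 7684, 9179 and 4802 CPM) and the highest muscle fibre sums (176504, 168019, 203020.2 and 222647 and 135566, 158768, 184280.1 and 196733 CPM). Their part in the spread of the members was not tested.

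At P1 and P14 no member was called between genotypes. At P1, 0 of 49 genes were called higher (0.0442% of the 18100 genes tested) and 0 lower (0.0% of them), with 9 at an unadjusted P-value under 0.05 and 0 in DESeq2. The libraries of the genotypes did not overlap for 1 member that was higher in KO, *Cdc25b* (4.49% of all genes), and for 7 that were lower, *Ccnd1*, *Ccne1*, *Mcm2*, *Mcm3*, *Mcm4*, *Mcm5* and *Mcm6* (4.24%). *Mcm2* had 27.9, 25.9, 28.7 and 27.8 CPM in WT against 22.05, 23.1, 23.9 and 17.8 CPM in KO at P1, lower in all 4 KO libraries (log2 fold change -0.33, SE 0.0922, adjusted P=0.231). The 5 helicase genes had log2 fold changes from -0.19 to -0.33, and *Mcm7* had 0.00. *Mki67* (log2 fold change -0.06, SE 0.0921, adjusted P=0.84), *Ccnd3* (log2 fold change 0.01, SE 0.142, adjusted P=0.977) and *Ccnd2* (log2 fold change -0.13, SE 0.1002, adjusted P=0.658) differed by less than the spread of the libraries. Of the marker lists, that of macrophages alone was apart at P1, with 181 to 199 CPM in WT and 164 to 172 CPM in KO, and its part was not tested.

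At P14, 0 of 49 genes were called higher (0.0254% of 15728) and 0 lower (0.00636%), with 1 at an unadjusted P-value under 0.05 and 0 in DESeq2. The libraries overlapped for every member, where 3.08% of all genes did not overlap with KO higher and 1.74% with KO lower. The log2 fold change was above 0 for 45 of 49 genes (median 0.14, all genes 0.00). At this age same-numbered WT and KO libraries deviated together, so the replicate number was also fitted as a block. With the block 0 members were called (0.623% of all genes), 36 of 49 lay above 0 (median 0.10) and 6 had an unadjusted P-value under 0.05. In that blocked fit *Ccnd3* had a log2 fold change of 0.34 with an adjusted P-value of 0.00308, under the fold threshold, and without the block the value was 0.34 (adjusted P=0.718). The immature fibre markers, with 4382 to 6294 CPM in WT and 3539.9 to 4109.9 CPM in KO, were the only marker list whose sums were apart. The median log2 fold change of its 7 genes was 0.58, in the other direction, and the 1 gene called was higher in KO. The part of this list was not tested.

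At P21 most members had a log2 fold change below 0, with 1 call. It was below 0 for 44 of 49 genes (median -0.32, all genes 0.01), 0 members were called higher (3.18% of 15179) and 1 lower (1.5%), the cyclin E2 gene *Ccne2*. *Ccne2* had 6.95, 6.69, 6.26 and 5.06 CPM in WT against 3.78, 3.66, 3.98 and 4.51 CPM in KO. All 4 KO libraries lay under the lowest WT library (log2 fold change -0.63, SE 0.125, adjusted P=0.00789). The call was lost without any single library other than WT P21 replicate 4, under library totals and with the replicate block, and DESeq2 called *Ccne2* and *Aurka*. Groups did not overlap for 0 members with KO higher (14.6% of all genes) and for 6 with KO lower (10.8%), namely *Ccnd2*, *Ccne2*, *Gmnn*, *Mcm2*, *Rrm1* and *Aurka*.

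Of the other members at P21, the D-type cyclin *Ccnd2* had 39.5, 52.9, 48.5 and 44.2 CPM in WT against 31.3, 33.4, 37.8 and 35.6 CPM in KO, apart by a small margin (log2 fold change -0.41, SE 0.104, adjusted P=0.0222). *Rrm1* had 40.6, 40.7, 46.4 and 43.6 CPM in WT against 28.4, 33.5, 34.99 and 34.4 CPM in KO, also apart (log2 fold change -0.37, SE 0.0878, adjusted P=0.0164). *Ccnd1* had 45.6, 65.6, 80.4 and 37.1 and 27.6, 46.01, 33.4 and 30.6 CPM, overlapping (log2 fold change -0.72, SE 0.249, adjusted P=0.0678). *Mki67* had the most negative value of the 49 and overlapped widely, since WT replicates 1 and 4 lay within the KO range (log2 fold change -0.77, SE 0.465, adjusted P=0.266). *Ccnd3* and *Pcna* had values near 0 (log2 fold change 0.19, SE 0.0969, adjusted P=0.202, and log2 fold change -0.06, SE 0.116, adjusted P=0.755).

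At this age the endothelial and mural markers summed to 1516 to 1769 CPM in WT against 1149.5 to 1357 CPM in KO and the erythroid markers to 4242 to 5802 and 2377 to 4061 CPM, both lower in KO without overlap. The immature fibre markers summed to 2638 to 9404 and 543 to 809 CPM, also lower in KO. Of the 7 genes of that list, however, 2 were called higher in KO and 1 lower, with a median log2 fold change of 1.38. The muscle fibre markers, at 178506 to 232451 and 161714 to 178204 CPM, were lower in KO by a narrow margin. The macrophage markers, at 90.7 to 103 and 106 to 129.8 CPM, and the keratinocyte markers, at 11.3 to 13.7 and 39.05 to 48.8 CPM, were higher in KO without overlap. Of the 12 keratinocyte genes, however, only 4 were high enough to be tested, of which 3 were called higher. The satellite and myogenic markers summed to 75.6 to 104 and 115 to 138 CPM, but the 10 genes of that list went different ways (median log2 fold change -0.15). The differentiation genes *Myog* (1.35) and *Mymx* (3.78) rose, while *Pax7* (-0.91), which marks satellite cells, *Calcr* (-2.11) and *Chrdl2* (-1.84) fell. Their part in the values of the members was not tested. Under library totals the median of all genes at P21 moved to 0.20, and 33 of 49 members then lay below 0.

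**Figure D3:**
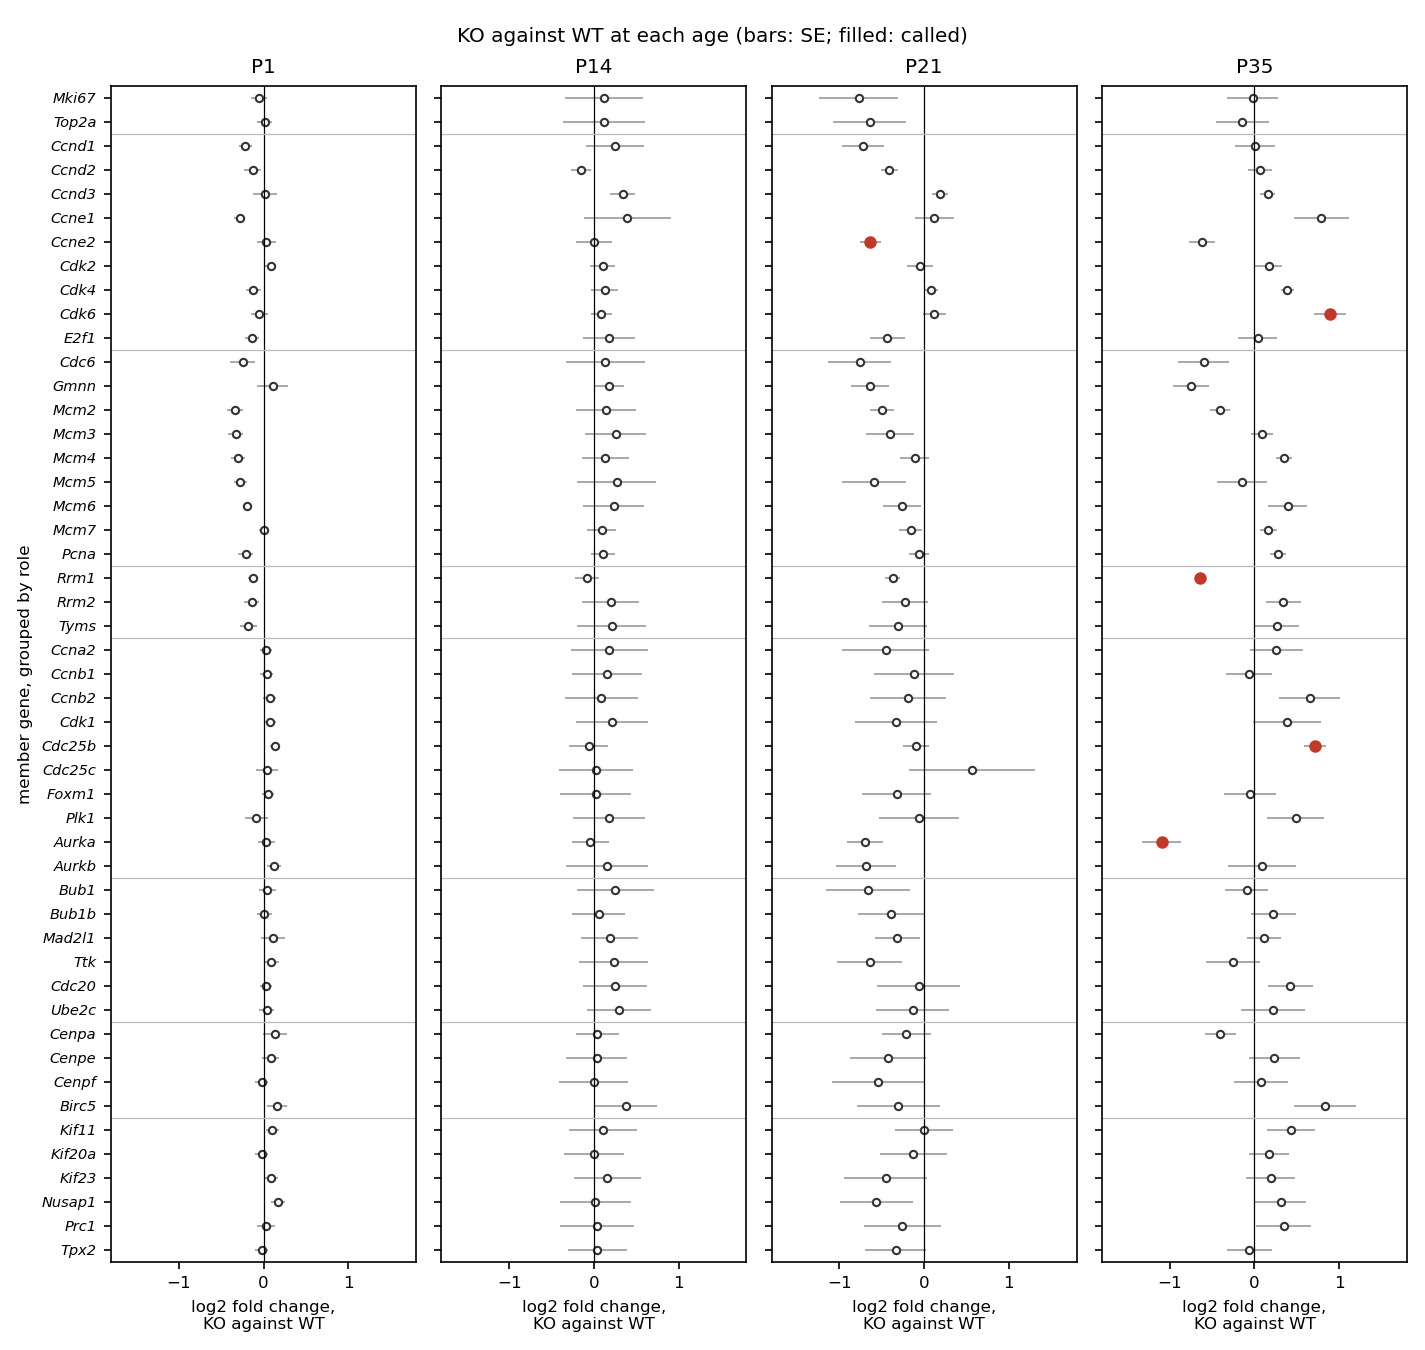
Log2 fold change of *Mtm1* KO over WT for each member at P1, P14, P21 and P35 (points, one panel per age) with its SE as a bar, filled where the member was called. Most points lie above 0 at P14 and below 0 at P21 without being called, and at P35 *Cdk6* and *Cdc25b* are called above 0 and *Aurka* and *Rrm1* below 0.

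At P35, 4 of the 48 members tested differed between genotypes, in both directions. The CDK gene *Cdk6* and the phosphatase gene *Cdc25b* rose in KO, 2 of 48 where 8.49% of 15595 genes rose, and *Rrm1* and *Aurka* fell, 2 of 48 where 7.52% fell. Groups did not overlap for 4 members with KO higher, *Cdk4*, *Cdk6*, *Mcm4* and *Cdc25b* (20.7% of all genes), and for 4 with KO lower, *Ccne2*, *Mcm2*, *Rrm1* and *Aurka* (18.9%). These shares are below those of all genes. The median log2 fold change of the members was 0.16, and that of all genes 0.04.

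*Rrm1* had 46.4, 48.1, 47.4 and 46.5 CPM in WT against 32.5, 27.7, 29.3 and 29.7 CPM in KO. The 2 groups were narrow and far apart (log2 fold change -0.64, SE 0.0665, adjusted P=0.000175), and the call held whichever library was left out. Its partner in the enzyme, *Rrm2*, lay in the other direction without a call (log2 fold change 0.34, SE 0.203, adjusted P=0.203). *Aurka*, the kinase that matures centrosomes, had 5.18, 5.36, 2.97 and 4.87 CPM in WT against 2.45, 1.46, 1.99 and 2.55 CPM in KO, with WT replicate 3 closest to the KO range (log2 fold change -1.10, SE 0.234, adjusted P=0.00501). *Aurkb*, the related kinase of the chromosomal passenger complex, had 0.09 (SE 0.399, adjusted P=0.873).

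*Cdk6*, a kinase partner of the D-type cyclins, had 3.21, 4.73, 6.48 and 5.51 CPM in WT against 8.55, 8.91, 10.4 and 8.48 CPM in KO. Every KO library was above every WT library (log2 fold change 0.89, SE 0.191, adjusted P=0.00512). *Cdc25b*, which activates CDK1 before mitosis, had 3.07, 4.17, 3.32 and 4.06 and 5.78, 5.58, 6.48 and 5.74 CPM, again fully apart (log2 fold change 0.71, SE 0.1302, adjusted P=0.00229). *Cdk4* had 27.4, 30.9, 28.9 and 25.7 and 36.9, 34.04, 37.6 and 36.7 CPM, apart but under the fold threshold (log2 fold change 0.39, SE 0.0738, adjusted P=0.00284). The call of *Cdk6* was kept without WT replicate 1 or 3 and lost without any other library, that of *Aurka* was lost without WT replicate 1, 2 or 4 or KO replicate 3, and that of *Cdc25b* was lost without KO replicate 3, which left *Rrm1* alone.

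A further 6 members had an adjusted P-value under 0.05 at P35 without passing the thresholds. *Ccne2* had 6.11, 5.83, 7.19 and 7.47 CPM in WT against 5.34, 4.31, 3.94 and 3.46 CPM in KO, fully apart (log2 fold change -0.62, SE 0.155, adjusted P=0.0113). *Gmnn*, which codes for the licensing inhibitor geminin, had 4.36, 5.64, 6.72 and 5.97 and 3.29, 2.29, 3.09 and 4.62 CPM, with 1 KO library inside the WT range (log2 fold change -0.75, SE 0.215, adjusted P=0.0201). The others were *Cdk4*, *Mcm2* (-0.41, adjusted P=0.019), *Mcm4* (0.35, adjusted P=0.0148) and *Pcna* (0.28, adjusted P=0.0494). *Mki67*, *Ccnd1*, *Ccnd2* and *Ccnd3* had log2 fold changes of -0.02, 0.01, 0.06 and 0.16, inside the spread of the libraries, with *Mki67* at 3.77, 10.2, 6.84 and 8.97 CPM in WT against 7.86, 4.54, 7.03 and 9.43 CPM in KO. Without a call, spindle motor, midzone and cytokinesis genes lay from -0.06 to 0.43 (median 0.25). Those of the spindle checkpoint and anaphase-promoting complex lay from -0.25 to 0.42 (median 0.17). Centromere and kinetochore genes lay from -0.41 to 0.83 (median 0.16), also without a call. The genes of G2 and M phase lay from -1.10 to 0.71 (median 0.26), with *Aurka* called lower and *Cdc25b* higher.

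**Figure D4:**
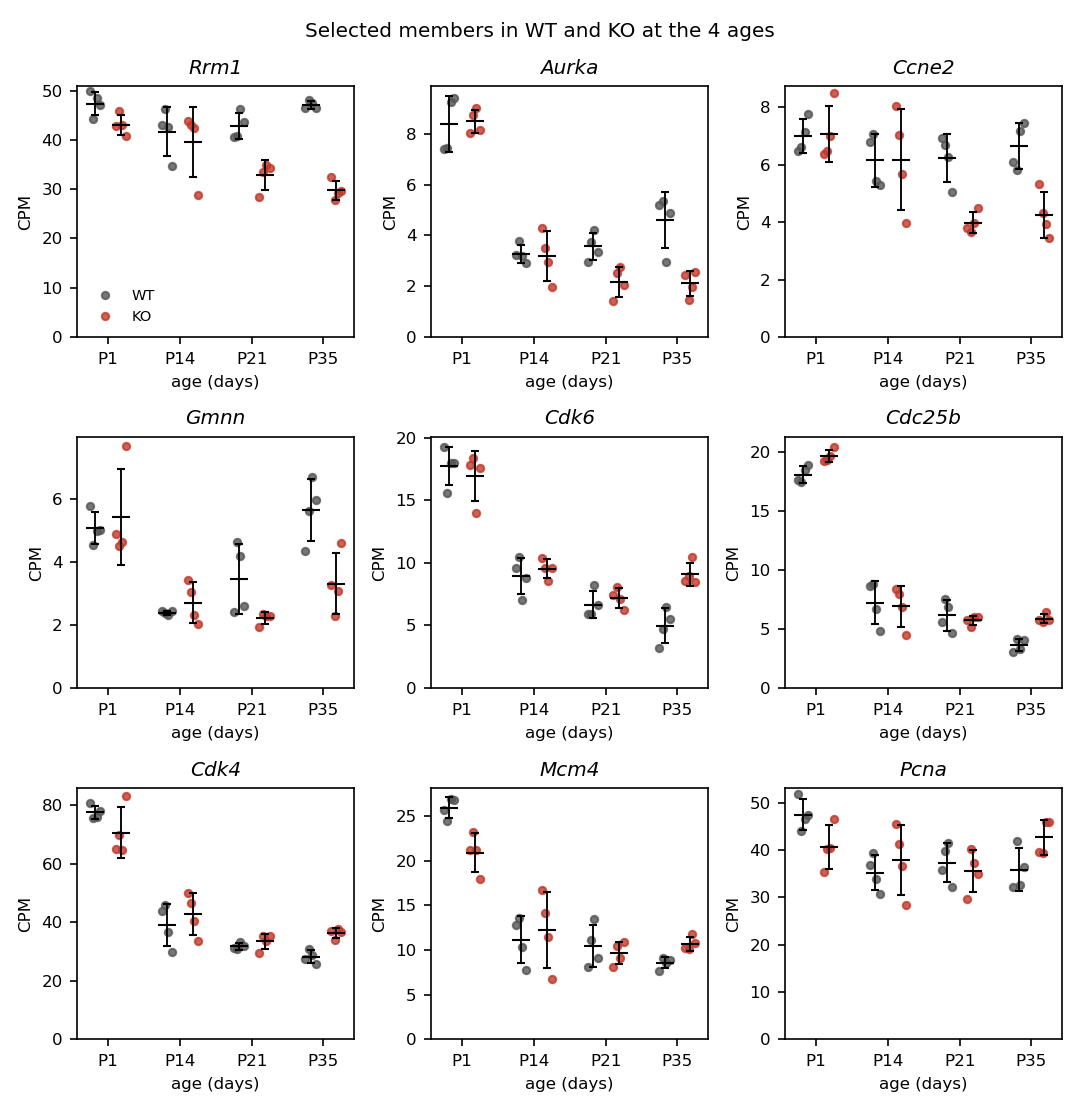
CPM of *Rrm1*, *Aurka*, *Ccne2*, *Gmnn*, *Cdk6*, *Cdc25b*, *Cdk4*, *Mcm4* and *Pcna* in each library (points, by age and genotype, in replicate order), with the mean ± SD of each group of 4 as a black bar. At P35 the KO points of *Rrm1*, *Aurka* and *Ccne2* lie below all WT points and those of *Cdk6*, *Cdc25b*, *Cdk4* and *Mcm4* above them.

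The split of calls at P35 depended on the scaling. Library totals moved the median of all genes to 0.44, and the calls were then 6 higher (*Ccne1*, *Cdk4*, *Cdk6*, *Mcm4*, *Pcna*, *Cdc25b*) and 0 lower in place of 2 and 2, with *Rrm1* at -0.24 (adjusted P=0.0106) and *Aurka* at -0.70 (adjusted P=0.0204), still below 0. At P35 the muscle fibre markers summed to 148132 to 216655 CPM in WT against 97801 to 130813 CPM in KO. The immature fibre markers summed to 2202 to 2804 and 352 to 957 CPM. The endothelial and mural markers summed to 1164 to 1819 and 935 to 1137 CPM and the erythroid markers to 1107 to 1846 and 561 to 706 CPM. All of these sums were lower in KO without overlap. Of the 7 immature fibre genes, however, 6 were called higher in KO and 1 lower, with a median log2 fold change of 1.97. The adipocyte markers, at 218 to 349.98 and 357 to 483 CPM, and the keratinocyte markers, at 14.7 to 16.8 and 43.7 to 60.3 CPM, were higher without overlap. So were the cartilage and bone markers, at 8.405 to 15.6 CPM in WT against 20.9, 208, 24.8 and 19.1 CPM in KO, with replicate 2 far highest. Of the 12 keratinocyte genes, however, only 5 were high enough to be tested, of which 3 were called higher. Of the 8 cartilage and bone genes 4 were tested and 1 was called higher. The macrophage markers, at 77.5 to 103 and 92.3 to 128 CPM, overlapped. The Schwann cell markers, at 96.6 to 602 and 322 to 1289 CPM, also overlapped, with 0 of 7 genes called and a median log2 fold change of 1.51. The satellite and myogenic markers summed to 70.3 to 91.1 and 116 to 205 CPM, with a median log2 fold change of 0.09 over the 10 genes, of which *Myog* (2.35) and *Mymx* (4.56) rose and *Pax7* (-1.43), *Calcr* (-3.15) and *Chrdl2* (-2.50) fell. The part of these lists in the differences of the members was not tested.

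Whether the genotype difference at P35 departed from that at P1 was tested as an interaction in 1 fit of all 32 libraries, a comparison added after the data had been seen. It was called for 3 of 49 members, against 15.9% of the 18583 genes tested. *Cdk6* had a difference of 0.93 on the log2 scale (SE 0.2096, adjusted P=0.00152), from -0.05 at P1 to 0.89 at P35. *Aurka* had -1.14 (SE 0.291, adjusted P=0.00438), and *Rrm1* had -0.53 (SE 0.137, adjusted P=0.00518). Leaving out WT P1 replicate 2 or KO P35 replicate 2 brought the count to 1. Under library totals *Aurka* was at -0.76 (adjusted P=0.0642) and *Rrm1* at -0.14 (adjusted P=0.584).

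The other genes of the pathway were read from 5 lists. Over the step from P1 to P14, 24.7% of all genes tested were called higher in WT and 23.5% in KO, beside the 30.4% and 29.1% called lower. In the list of other replication genes, 20 of 28 were called lower from P1 to P14 in WT and 13 in KO. The furthest in WT were *Gins2* (-2.26) and *Cdt1* (-2.10), and in KO *Gins2* (-1.996) and *Prim1* (-1.98). Among other mitosis genes 40 of 44 were called lower in WT and 35 in KO. The furthest down were *Espl1* (-2.06) and *Dlgap5* (-2.06) in WT and *Sgo1* (-2.02) in KO. *Pttg1*, which codes for securin, rose instead in both genotypes (2.07 in KO). Of 17 pocket proteins, other E2F factors and DREAM complex genes, 4 fell and 4 rose in WT and 3 fell and 4 rose in KO, with *E2f8* (-1.93) and *Mybl2* (-1.85) the furthest down in WT and the same pair in KO (-1.48 and -1.33). Of 18 G1 regulators, 4 fell and 6 rose in WT and 5 fell and 4 rose in KO, led by *Ccng1* (2.57 and 2.37) and *Gadd45a* (2.02 and 2.35). In the last 2 lists these shares are not far from those of all genes, in either direction.

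Between P14 and P21, edgeR called few genes of the lists, although DESeq2 called 27 of the 44 other mitosis genes in KO where edgeR called 1. The share of all genes that DESeq2 called in this step is not given here. In WT *Cdkn1c*, *Ccni* (-0.90), *Btg1* (-0.68) and *Rb1* (-0.72) fell and *E2f6* rose (0.63). In KO *Cdkn1c*, *Ccni* (-0.73), *Wee1* (-0.63), *Smc4* (-0.98), *Dbf4* (-1.17) and *E2f7* (-1.55) fell and *Cdkn1a* rose (1.33).

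Between genotypes, 0 genes of the replication and mitosis lists were called by edgeR at P21 or P35. At an unadjusted P-value under 0.05 there were 5 replication and 5 mitosis genes at P21 and 8 and 5 at P35, and DESeq2 called 3 replication genes at P21, 1 at P35 and 0 mitosis genes. By contrast, the CDK inhibitor gene *Cdkn1a*, which codes for p21, was called at both ages. *Cdkn1a* had 21.8, 30.05, 26.8 and 27.7 CPM in WT against 335, 335, 230.3 and 202 CPM in KO at P21. The KO libraries lay far above (log2 fold change 3.38, SE 0.190, adjusted P=3.11e-05). At P35 it had 29.1, 13.4, 17.6 and 10.3 CPM in WT against 166, 235, 361 and 226 CPM in KO, again without overlap (log2 fold change 3.83, SE 0.357, adjusted P=0.000118). The genotype difference in *Cdkn1a* was larger at P21 than at P14 by 2.31 on the log2 scale (interaction adjusted P=0.00369). At P14 the values were 36.7, 36.4, 44.1 and 89.7 and 67.1, 83.9, 127 and 155 CPM. The groups overlapped and the difference was not called (log2 fold change 1.06, SE 0.355, adjusted P=0.624), but KO was higher in each of the 4 same-numbered pairs, and the fit blocked on replicate number called it (log2 fold change 1.09, SE 0.102, adjusted P=0.000447). No other gene of the 5 lists was called in that blocked fit, which was run on these lists after the data had been seen. Replicate 4 was the highest of each P14 group for *Cdkn1a* and the lowest for the summed members.

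**Figure D5:**
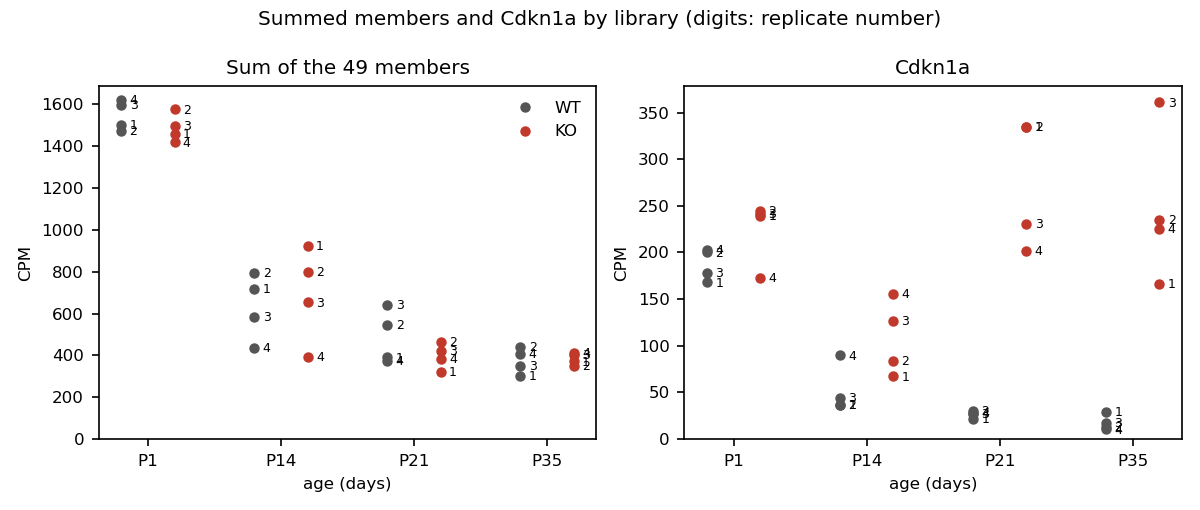
Summed CPM of the 49 genes and CPM of *Cdkn1a* in each library by age and genotype, with digits giving the replicate number. The summed level was at 1419 to 1622 CPM at P1 and at P35 between 301 and 440 CPM in WT and between 348 and 411 CPM in KO, while *Cdkn1a* was at 202 to 335 CPM in KO and 21.8 to 30.05 CPM in WT at P21.

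The other CDK inhibitors were not called between genotypes. *Cdkn1b* (p27) had log2 fold changes of 0.03 at P21 and -0.22 at P35, *Cdkn1c* (p57) 0.48 and -0.25, *Cdkn2c* -0.23 and 0.06, *Cdkn2d* 0.23 and 0.09, and *Cdkn2b* 0.28 and -0.31. *Cdkn2a* was too low to be tested, at most at 0.245 CPM. With age, *Cdkn1a*, *Cdkn1c* and *Cdkn2b* fell and *Cdkn1b* rose from P1 to P14 in both genotypes, and *Cdkn1c* fell again from P14 to P21 (-2.87 in WT and -2.59 in KO). *Cdkn1c* stood at 527, 525, 444 and 339.7 CPM at WT P14 and 49.1, 62.3, 74.03 and 66.7 CPM at WT P21, far apart. In the pocket protein list *Rb1*, whose product holds E2F factors, rose in KO at P21 (log2 fold change 1.17, SE 0.147, adjusted P=0.0011) and P35 (log2 fold change 1.04, SE 0.103, adjusted P=0.000143). *E2f8*, a repressor of E2F targets, rose at P35 (log2 fold change 2.02, SE 0.215, adjusted P=0.00019), with 0.462, 0.936, 0.926 and 0.784 CPM in WT against 3.16, 3.19, 3.02 and 3.08 CPM in KO. *E2f6* and *Lin9* fell at P35 (-0.80 and -0.66). Of the G1 regulators, the stress-responsive gene *Gadd45a* rose at P21 and P35 (1.23 and 1.57), *Btg2* and *Myc* rose at P35 (1.16 and 0.86), and *Gadd45b* and *Ccng1* fell at P35 (-1.49 and -0.82).

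The annotation places exons of a gene on the other strand over those of 17 of the 49 members. Among those with values above these are *Ccnd1* (*LTO1*), *Ccnd2* (*Gm43126* and *9330179D12Rik*), *Ccnd3* (*Bysl*), *Ccne2* (*Ints8*), *Cdk4* (*Tspan31*), *Cdk6* (*Gm17590*), *Mcm7* (*Cops6* and *Ap4m1*), *Cdc25b* (*Spef1*), *Cdc25c* (*Gm3550*), *Plk1* (*Gm44985*), *Ube2c* (*Tnnc2*, a gene of fast muscle fibres) and *Nusap1* (*Oip5*), and the others are *Cdk2*, *Ccna2*, *Cdc20*, *Kif20a* and *Prc1*. Exons of another gene on the same strand lie over those of *Top2a*, *Foxm1* and *Mcm7*. Whether counting used the strand is not given in the sources used here, and without it reads of overlapping genes on opposite strands cannot be told apart, so values of these members are uncertain to that extent. The other 30 members, *Rrm1*, *Aurka*, *Mki67*, *Ccne1* and *Gmnn* among them, share no exon with another annotated gene.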

How the data were processed

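RNA of TA muscle was measured in 32 libraries of WT and *Mtm1* KO mice (n=4 per genotype and age), grouped by the genotype and age in their labels. Poly(A) RNA was made into directional libraries and sequenced as paired ends. The authors deposited 1 table of RSEM expected counts, with genes in rows and libraries in columns, without scaling or pooling, of which 0 columns were left unused. The submitters' processing notes name STAR 2.6.1, RSEM 1.2.22 and GRCm38, whereas the study's methods name HTSeq as the counter. The methods give n=4 per genotype at P14, P21 and P35 and do not name P1, for which n=4 was taken from the labels. The labels number the replicates without naming mice. Totals were 49321035 to 85631408, and counts cover counting error only.

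Symbols and exon lengths came from GENCODE M21 (GRCm38). Expected counts were rounded to whole numbers for edgeR 4.0.16 (R 4.3.3), using filterByExpr, TMM scaling and the two-sided quasi-likelihood test (glmQLFit, glmQLFTest) for each pair of groups, with Benjamini-Hochberg adjustment across every gene in the fit. Interactions were fitted on all 32 libraries. The steps were tested on simulated data. Alternatives were DESeq2 1.42.0, RLE size factors, library totals, no filter, an adjusted P-value under 0.05, other libraries in the fit, the replicate block, and each library left out. The members and lists were chosen with earlier results of these data known. Values are given for up to 3 called members at each end of the log2 fold changes of a comparison, where the groups did not overlap, for *Mki67*, *Ccnd1*, *Ccnd2*, *Ccnd3* and *Pcna*, for members called in an interaction, for all CDK inhibitors, and for the 2 called genes of each list with the largest change. Other members named beside these were chosen after their values were seen. Judged over all genes, replicate numbers paired the libraries only for KO against WT at P14. There the 4 correlations of same-numbered deviations were 0.19 to 0.588 (mean 0.33).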

Additional observations from a re-analysis of the deposited data

Results flagged for a closer look

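Values that stood apart or differed between ages are given here with no explanation. Among 128 groups of 4 values of named genes, the gap between the outermost library and the nearest other one, as a share of the range, exceeded Dixon's critical value for 4 samples in 3, where chance gives about 1 in 20. These were *Rrm1* in KO P14 replicate 4 (0.898, at 28.9 CPM against 42.3 to 43.8 CPM), *Plk1* in KO P1 replicate 4 (0.947, at 9.38 CPM against 13.0 to 13.2 CPM) and *Nusap1* in KO P1 replicate 1 (0.981, at 19.2 CPM against 21.9 CPM in the other libraries). The genotype difference departed between P1 and P35 by 0.93 on the log2 scale for *Cdk6* (edgeR adjusted P=0.00152), -0.53 for *Rrm1* (0.00518), -1.14 for *Aurka* (0.00438) and 3.55 for *Cdkn1a* (1.04e-06), and between P14 and P21 by 2.31 for *Cdkn1a* (0.00369). For *Mcm4* the KO libraries lay under the whole WT range at P1 (log2 fold change -0.30) and over it at P35 (0.35). The values differ by 0.65, and the interaction of 0.64 did not pass (edgeR adjusted P=0.0692).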

How the results depend on the processing

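Of 98 counts of called members under alternatives other than leaving out a library, 77 stayed within 1.5 times of the reported count. These include comparisons with a reported count of 0 that stayed at 0. At an adjusted P-value under 0.05 with no fold threshold the counts were 5 (KO against WT at P21), 10 (P35), 3 (WT P14 to P21), 2 (WT P21 to P35), 27 (KO P14 to P21), 1 (KO P21 to P35) and 7 (P35 against P1). Library totals gave 0 at P21 and 0 for WT P14 to P21. DESeq2 gave 2 at P21, 3 for WT P14 to P21, 2 for WT P21 to P35 and 19 for KO P14 to P21, no filter gave 6 for the last, and all 32 libraries in 1 fit gave 2, 1 and 22 for those 3 steps. With only 16 libraries the interaction of P35 against P1 gave 6. The cause of these moves was not tested. Of 264 values of named members, 220 kept direction and side of the threshold, 44 kept direction only and 0 reversed. These members were named because they were called, which makes a reversal unlikely. The setting at an adjusted P-value under 0.05 used the same fit, so under it they kept their side by construction.

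With the replicate block, 0 members were called at P21 in place of 1, 0 for WT P14 to P21 in place of 1, and 5 for P35 against P1 in place of 3, and it moved no other count by over 1.5 times. Outside P14, the numbers did not pair the libraries. Leaving out each library in turn gave 0 to 1 at P21, 1 to 4 at P35, 45 for WT P1 to P14, 28 to 41 for KO P1 to P14, 0 to 1 for WT P14 to P21, 0 to 35 for KO P14 to P21, 1 to 4 for P35 against P1 and 0 elsewhere. Depth limits the lowest members, such as *Cdc25c* at P35, and 4 mice a group limit the rest after P1, where members varied between mice more than most genes.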

Other observations

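Ranked per kilobase of exon, the members changed places with age, and the roles grew more separate, though not completely. *Cdc20*, *Ccnb2* and *Ccna2*, genes of the spindle checkpoint or of G2 and M phase, ranked 5, 6 and 8 at WT P1. At WT P35 they ranked 23, 26 and 22. At WT P35 *Pcna*, *Cdk4*, *Ccnd1* and *Rrm1* ranked 1 to 4. *Ccnd3*, *Ccnd2*, *Gmnn*, *Mcm4*, *Mcm7* and *Ccne2* followed at 5 to 10. The genes of ranks 1 to 10 all belong to G1 and S phase, licensing and the fork, or deoxynucleotide supply. The mitotic kinase gene *Aurka* ranked 11 and the mitotic phosphatase gene *Cdc25b* 17, while *Cdk6*, *Tyms* and *Ccne1* ranked 34, 39 and 40. At that age *Mki67* was at 0.739 CPM per kb and ranked 24 of 49, from 10.1 CPM per kb and rank 7 at WT P1. In KO P35 it was at 0.717 CPM per kb and ranked 24.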
